A study of Mus musculus and Homo sapiens with 9 samples.

Results

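The 9 genes described here encode the enzymes that make serine and pass its carbon through folate to thymidylate. They were chosen by name for their place in this pathway, by a rule that uses no measured value, though with earlier results of these data known: PHGDH, PSAT1 and PSPH (serine synthesis), SHMT1 and SHMT2 (serine to glycine), MTHFD1, MTHFD2 and MTHFD1L (folate-bound carbon units) and TYMS (thymidylate). In each of the RNA-seq tables of this study, human J.gamma1 leukemia cells and mouse splenic T cells, all 9 genes had a row and all 9 passed the filter on low counts. They were read among 56105 annotated genes in J.gamma1 cells, of which 15819 were tested, and among 42462 in the mouse, of which 15350 were tested.

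IRF2BP2 is a transcriptional cofactor, and the study asked what its loss does in T-ALL, the acute leukemia of T lineage lymphoblasts. J.gamma1 is a T-ALL line, a derivative of Jurkat that lacks phospholipase C gamma 1. The cells carried a lentiviral short hairpin RNA under puromycin selection, either a control hairpin (sh-NC, n = 2) or a hairpin against IRF2BP2 (sh-IRF2BP2, n = 2); which hairpin sequence was used is not given in the sources used here, and all 4 libraries came from a single line. The mouse libraries came from CD3+ T cells sorted from spleen with magnetic beads, from Irf2bp2 knockout mice of genotype Vav-iCre+/-;Irf2bp2fl/fl (n = 2) or from controls (n = 3). The labels call these controls wild type, whereas the study's methods describe them as Vav-iCre-/-;Irf2bp2fl/fl, and the age of the sequenced mice is not given separately, while the mice of the flow cytometry experiments were 6 weeks old. Vav-iCre is active throughout the blood lineages, so Irf2bp2 was lost in every blood cell type and not only in T cells. Neither set of labels says whether replicates were separate cultures or animals, so the p-values measure the spread between these libraries, which may be technical.

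Cells make serine from a glycolytic intermediate in a short chain of steps that ends with phosphoserine phosphatase. Serine hydroxymethyltransferase then splits serine into glycine and a carbon unit held on tetrahydrofolate, with SHMT1 in the cytosol and SHMT2 in mitochondria, and the MTHFD enzymes interconvert the folate-bound units that feed purine and thymidylate synthesis. Dividing T cells and leukemic lymphoblasts are known to depend on this supply, and antifolates that act on it have long been used against acute lymphoblastic leukemia.

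The libraries held 26648204 to 31120236 counts in J.gamma1 cells and 16668577 to 37177523 in the mouse, where control replicate 3 was the shallowest. Levels are given as CPM, counts scaled to a common library size by TMM, a method that aligns the bulk of genes between libraries. IRF2BP2 (ENSG00000168264) stood at 204 and 199 CPM with sh-NC and at 79.0 and 93.8 CPM with sh-IRF2BP2 (log2 fold change -1.22, SE 0.131, adjusted p = 0.0023 by the quasi-likelihood test of edgeR, Benjamini-Hochberg adjusted). Irf2bp2 (ENSMUSG00000051495) had 4145, 4594 and 1915 counts in the mouse controls and 0 in both knockout libraries, at least 1469-fold lower against a floor of 3 counts per library. The 12 T cell markers summed to between 2357 and 2648 CPM over the J.gamma1 libraries and to between 4986 and 7390 CPM over the mouse libraries, and each marker had counts in both groups of its table.

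In J.gamma1 cells the serine synthesis genes were lower with sh-IRF2BP2, and PHGDH and PSAT1 passed the test. SHMT2, the mitochondrial hydroxymethyltransferase, also fell. All 9 genes had a log2 fold change below 0, with a median of -0.44, and 3 of them passed the threshold of 0.05 on the adjusted p downward and 0 upward. Among all tested genes the median log2 fold change was 0.01, 49.4% lay below 0, 5.32% were called lower and 5.83% were called higher. DESeq2 called 5 members lower and 0 higher, and over all 13705 genes it tested 1094 lower and 1227 higher. At an unadjusted p under 0.05, 7 members were lower and 0 higher, but the share over all genes was not counted there. In 8 of the 9 genes both sh-IRF2BP2 libraries lay below both sh-NC libraries, against 28.7% of all genes, and in 0 both lay above, against 29.6%.

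Sequence upstream of PHGDH and PSAT1 is shown because these genes fell together with the knockdown. Windows of 250 bases before to 50 bases after the transcript start were searched on both strands for a CCAAT box (CCAAT), an E-box (CACGTG), an E2F half-site (GCGGGAA) and the core of the ATF4 and C/EBP composite element (TGATGNAA). PSAT1 had 3 CCAAT matches, at -113, -83 and -52 from the start, in chr9:78296875-78297124 (hg38, plus strand). PHGDH had 1, at -71, shown with the bases around it in chr1:119711851-119711880 (hg38, plus strand), where some annotated PHGDH transcripts already have exon sequence. Capitals mark the CCAAT matches.
PSAT1: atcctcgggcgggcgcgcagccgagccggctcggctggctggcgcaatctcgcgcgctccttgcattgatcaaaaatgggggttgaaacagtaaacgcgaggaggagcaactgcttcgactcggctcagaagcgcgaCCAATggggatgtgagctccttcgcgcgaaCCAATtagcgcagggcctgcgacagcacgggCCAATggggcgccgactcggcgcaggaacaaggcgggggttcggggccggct
PHGDH: gagtatttccgtCCAATcaaaaggagactg

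The CCAAT box was found in 6 of the 9 human windows (PHGDH, PSAT1, PSPH, SHMT1, MTHFD1 and MTHFD2) and in 36% of the 19969 windows of protein-coding genes. No window of the 9 held the ATF4 and C/EBP core, which 2.48% of all windows held. The E-box was found in MTHFD1 alone among the 9, against 8.75% of all windows, and the E2F half-site in MTHFD1L and TYMS, against 8.63%. SHMT2, the other gene that fell, had none of these letters in its window. The matches did not overlap each other, and they are a description of these windows only.

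PHGDH (ENSG00000092621, chr1:119648411-119744218, plus strand, hg38) encodes phosphoglycerate dehydrogenase, which opens the serine chain. It stood at 168 and 190 CPM with sh-NC and at 104 and 93.2 CPM with sh-IRF2BP2, so that the groups did not overlap. PHGDH fell by 0.86 on the log2 scale (SE 0.128, adjusted p = 0.0067 by the quasi-likelihood test of edgeR, Benjamini-Hochberg adjusted), which left 0.55 of the control level. This call held without each library in turn, with log2 fold changes between -0.97 and -0.77.

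PSAT1 (ENSG00000135069, chr9:78297125-78330093, plus strand) encodes phosphoserine aminotransferase, the next step. Its libraries stood at 242 and 212 CPM with sh-NC and at 141 and 112 CPM with sh-IRF2BP2, again without overlap. The log2 fold change was -0.85 (SE 0.150, adjusted p = 0.013), almost the size of that of PHGDH. Without sh-IRF2BP2 replicate 2 it was -0.69 with an adjusted p of 0.067, and the call was lost.

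PSPH (ENSG00000146733, chr7:56011051-56051604, minus strand), the phosphatase that releases free serine, was the weakest expressed of the 9 genes in J.gamma1 cells. It had 31.2 and 31.1 CPM with sh-NC and 23.7 and 22.3 CPM with sh-IRF2BP2. The log2 fold change was -0.44 (SE 0.133) and did not pass the test (adjusted p = 0.075), although the libraries were apart. Summed over the 3 serine synthesis genes, the libraries held 442 and 434 CPM with sh-NC and 269 and 227 CPM with sh-IRF2BP2.

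SHMT2 (ENSG00000182199, chr12:57229573-57234935, plus strand) stood at 184.2 and 184.5 CPM with sh-NC and at 129 and 126 CPM with sh-IRF2BP2. Replicates lay close together and the groups well apart. The log2 fold change was -0.53 (SE 0.114, adjusted p = 0.025), and the call was lost without sh-IRF2BP2 replicate 1 (adjusted p = 0.14) and without replicate 2 (adjusted p = 0.16). The cytosolic SHMT1 (ENSG00000176974, chr17:18327860-18363563, minus strand) had 93.2 and 95.7 CPM with sh-NC and 71.9 and 70.0 CPM with sh-IRF2BP2. Its log2 fold change of -0.41 (SE 0.111) missed the threshold with an adjusted p of 0.052. The ratio of SHMT1 to SHMT2 counts was 0.506 and 0.519 with sh-NC and 0.559 and 0.554 with sh-IRF2BP2, so the mitochondrial gene was lower by slightly more; this ratio was not tested.

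None of the 3 MTHFD genes was called. MTHFD2 (ENSG00000065911, chr2:74186172-74217565, plus strand), the mitochondrial dehydrogenase and cyclohydrolase, came nearest, with 362 and 358 CPM against 279 and 233 CPM, a log2 fold change of -0.49 (SE 0.134) and an adjusted p of 0.054. MTHFD1L (ENSG00000120254, chr6:150865679-151101887, plus strand), the mitochondrial formate-releasing synthetase, had 125 and 115 CPM with sh-NC and 101 and 82.6 CPM with sh-IRF2BP2 (log2 fold change -0.39, SE 0.135, adjusted p = 0.11). In both mitochondrial genes the groups did not overlap. MTHFD1 (ENSG00000100714, chr14:64388031-64463457, plus strand), the trifunctional cytosolic enzyme, had 323 and 272 CPM with sh-NC and 274 and 220 CPM with sh-IRF2BP2, so that the groups overlapped (log2 fold change -0.27, SE 0.154, adjusted p = 0.30).

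TYMS (ENSG00000176890, chr18:657653-673578, plus strand) encodes thymidylate synthase, the target of fluoropyrimidines, and was the most abundant of the 9 genes in counts. It stood at 853 and 955 CPM with sh-NC and at 786 and 740 CPM with sh-IRF2BP2. The groups were apart, but the log2 fold change of -0.25 (SE 0.135) had an adjusted p of 0.28. ENOSF1 on the opposite strand shares 39.9% of the annotated exon bases of TYMS. Whether the counting used strand is not given in the sources used here, so reads of TYMS and ENOSF1 cannot be fully told apart; ENOSF1 itself had 67.1 and 62.3 CPM with sh-NC and 65.6 and 77.4 CPM with sh-IRF2BP2. The gene SLC4A5 on the opposite strand shares 11.6% of the exon bases of MTHFD2, and PHGDH, PSAT1, PSPH and MTHFD1L share no exon bases with another annotated gene.

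**Figure D1:**
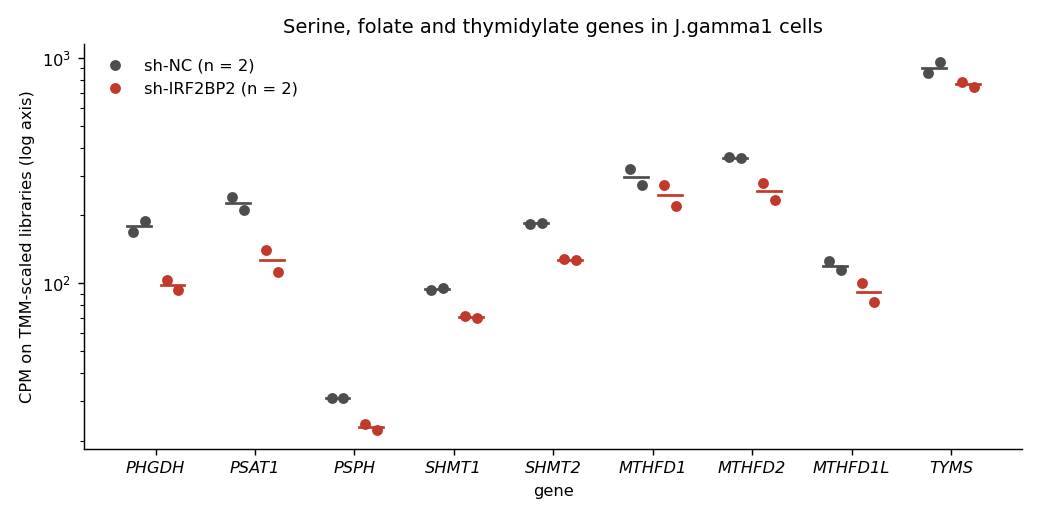
The 9 genes (x axis) in each J.gamma1 library, in CPM on TMM-scaled libraries (y axis, log scale), with sh-NC in grey and sh-IRF2BP2 in red; points are libraries and lines are group means, n = 2 per group. The red points lie below the grey points in every gene but MTHFD1, and the gap is widest in PHGDH and PSAT1.

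Within the knockdown group, sh-IRF2BP2 replicate 2 was the lower library in all 9 genes. It was also the library with more IRF2BP2 left, 93.8 against 79.0 CPM. How many of all genes had this order was not counted, and any link to the IRF2BP2 left was not tested. The sh-NC libraries showed no such order, since replicate 1 was the lower in 4 genes and replicate 2 in 5. Without sh-IRF2BP2 replicate 2 the median log2 fold change of the 9 genes was -0.40, and without sh-IRF2BP2 replicate 1 it was -0.56. The 3 genes that missed the threshold by the least, SHMT1, MTHFD2 and PSPH, had adjusted p-values between 0.052 and 0.075, so the line between called and uncalled members is not sharp here.

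Since counts grow with the length of a transcript, levels of different genes were compared per kilobase of annotated exon. In sh-NC cells TYMS came first with 373 ± 29.6 CPM per kilobase (SD, n = 2), followed by PSAT1 with 103 ± 9.60, SHMT2 with 40.1 ± 0.0427, MTHFD2 with 31.5 ± 0.232 and MTHFD1L with 24.5 ± 1.47. PHGDH followed with 19.5 ± 1.65 and MTHFD1 with 17.1 ± 2.06, whose libraries overlapped, and SHMT1 with 13.5 ± 0.259 and PSPH with 11.3 ± 0.00806 came last. This order depends on the length used: per kilobase of a principal transcript, PHGDH stood at 96.0 and MTHFD1 at 94.3 CPM per kilobase, overlapping PSAT1 at 103, while TYMS stayed first and PSPH last. With sh-IRF2BP2, TYMS was still first at 315 ± 13.4 and PSPH last at 8.32 ± 0.361 CPM per kilobase of exon (SD, n = 2).

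In mouse CD3+ T cells the pattern was different: Mthfd1 rose, and none of the 9 genes was called lower. The median log2 fold change of the 9 genes was 0.12, with 6 above 0, 1 called higher and 0 called lower by the quasi-likelihood test of edgeR. Among all tested genes the median was -0.02, 47.9% lay above 0, 2.68% were called higher and 0.15% were called lower. At an unadjusted p under 0.05 and by DESeq2 alike, 2 members were higher and 0 lower. Over all 15994 genes it tested, DESeq2 called 958 higher and 253 lower, and the share at an unadjusted p was not counted. The groups did not overlap in 5 genes, higher in the knockout in Psat1, Mthfd1 and Tyms and lower in Phgdh and Psph, where 18.2% of all genes were apart upward and 17.8% downward.

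The sequence upstream of mouse Mthfd1 is shown because it was the member that passed the test in the mouse. It lies in chr12:76254982-76255231 (GRCm38.p6, plus strand, RefSeq). The capitals mark a CCAAT match on the opposite strand, read here as ATTGG, at -69, and an E2F half-site at -53.
Mthfd1: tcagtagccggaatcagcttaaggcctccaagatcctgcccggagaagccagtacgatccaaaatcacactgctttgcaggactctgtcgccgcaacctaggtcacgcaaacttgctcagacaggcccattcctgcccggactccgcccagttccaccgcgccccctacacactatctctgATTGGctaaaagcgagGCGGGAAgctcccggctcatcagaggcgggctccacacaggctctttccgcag

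All 9 mouse members matched a RefSeq entry by symbol, in 10 windows, since Psat1 had 2 start sites and its CCAAT matches lay in 1 of them. Among the 9 members the E2F half-site was found in Mthfd1 alone, against 4.6% of 32841 windows. The CCAAT box was found in 6 of the 9 members (Phgdh, Psat1, Psph, Shmt1, Mthfd1 and Mthfd2), the same genes as in human, against 37.4% of all windows. Tyms held an E-box at -61, found in 7.15% of windows, and no member held the ATF4 and C/EBP core, found in 3.97%.

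Mthfd1 (ENSMUSG00000021048, chr12:76255298-76319803, plus strand, mm10) stood at 66.3, 64.6 and 74.9 CPM in the controls and at 143 and 133 CPM in the knockout libraries, far apart. It was 2.01-fold higher (log2 fold change 1.01, SE 0.124, adjusted p = 0.013 by the quasi-likelihood test of edgeR, Benjamini-Hochberg adjusted). The size held without each library, between 0.94 and 1.07, but the call was lost without control replicate 1 (adjusted p = 0.077), knockout replicate 1 (0.14) or knockout replicate 2 (0.14). Without control replicate 1 no member was called, and over all genes the number called higher went from 412 to 6. The fits without a knockout library leave a single library in that group, and calls over all genes fell there too.

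The mitochondrial partners of Mthfd1 were not called. Mthfd2 (ENSMUSG00000005667, chr6:83305691-83325908, minus strand) had 43.9, 47.3 and 42.5 CPM in controls and 55.4 and 46.5 CPM in the knockout, and Mthfd1l (ENSMUSG00000040675, chr10:3973118-4167081, plus strand) had 74.5, 52.7 and 86.0 against 78.1 and 76.2 CPM. Both overlapped between groups, with log2 fold changes of 0.19 (SE 0.136, adjusted p = 0.57) and 0.12 (SE 0.209, adjusted p = 0.84). The ratio of Mthfd1 to Mthfd2 counts was 1.51, 1.37 and 1.76 in the controls and 2.58 and 2.87 in the knockout, and that of Mthfd1 to Mthfd1l was 0.890, 1.23 and 0.871 against 1.83 and 1.75. Each ratio was higher in both knockout libraries than in every control; the ratios were chosen after the values were seen and were not tested.

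Tyms (ENSMUSG00000025747, chr5:30058202-30073617, minus strand) had the largest log2 fold change of the 9 genes. It stood at 8.69, 14.2 and 6.38 CPM in the controls and at 23.8 and 30.9 CPM in the knockout. Every knockout library lay above every control, but the controls varied widely among themselves. The log2 fold change was 1.48 (SE 0.338) with an adjusted p of 0.083, and Tyms was called without control replicate 2 (log2 fold change 1.86, adjusted p = 0.013).

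In the serine synthesis arm the mouse genes went in different directions, and none passed the test. Phgdh (ENSMUSG00000053398, chr3:98313170-98339990, minus strand) had 89.1, 110 and 84.8 CPM in controls and 80.8 and 80.1 CPM in the knockout (log2 fold change -0.23, SE 0.148, adjusted p = 0.52). Psat1 (ENSMUSG00000024640, chr19:15904678-15947337, minus strand) had 33.9, 44.6 and 34.3 CPM in controls and 50.02 and 45.0 CPM in the knockout (log2 fold change 0.34, SE 0.167, adjusted p = 0.40). In Psat1 the lower knockout library exceeded control replicate 2 by a small margin. Psph (ENSMUSG00000029446, chr5:129765558-129787449, minus strand), of whose exon bases 10.4% are shared with Cct6a on the opposite strand, had 24.996, 37.7 and 24.1 against 22.6 and 20.9 CPM (log2 fold change -0.41, SE 0.232, adjusted p = 0.46).

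The mouse hydroxymethyltransferases overlapped between groups. Shmt2 (ENSMUSG00000025403, chr10:127517123-127522444, minus strand) had 87.2, 108 and 88.0 CPM in controls and 105 and 97.9 CPM in the knockout (log2 fold change 0.10, SE 0.142, adjusted p = 0.80). Shmt1 (ENSMUSG00000020534, chr11:60788104-60811718, minus strand) had 9.31, 10.9 and 10.4 CPM in controls and 11.0 and 9.21 CPM in the knockout (log2 fold change -0.02, SE 0.213, adjusted p = 0.98). Shmt1 was also the lower of the pair in every mouse library, with a ratio to Shmt2 between 0.0941 and 0.119.

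**Figure D2:**
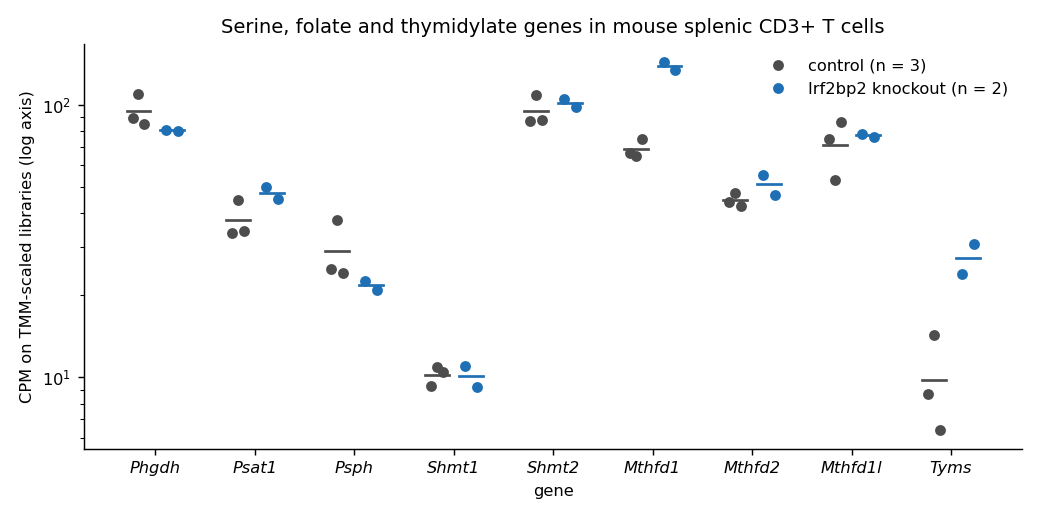
The 9 genes (x axis) in each mouse CD3+ T cell library, in CPM on TMM-scaled libraries (y axis, log scale), with controls in grey (n = 3) and Irf2bp2 knockout in blue (n = 2); points are libraries and lines are group means. The blue points stand clear above the grey in Mthfd1 and Tyms, and the groups lie close together or overlap in the other genes.

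**Figure D3:**
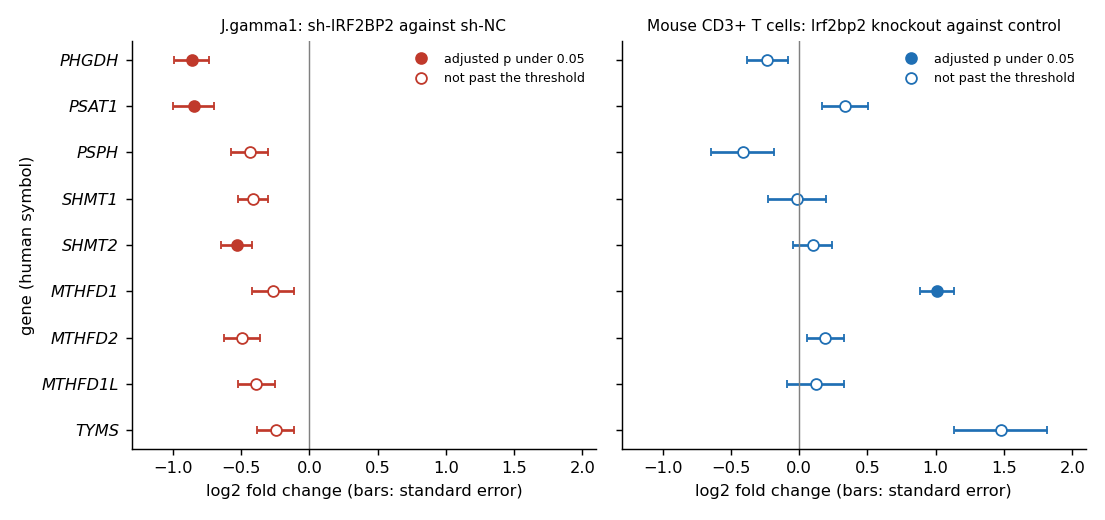
Log2 fold change (x axis) of the 9 genes (y axis) in J.gamma1 cells (left) and mouse CD3+ T cells (right); bars are the standard error, and filled points have an adjusted p under 0.05. All 9 points lie below 0 on the left, with PHGDH, PSAT1 and SHMT2 filled, and Mthfd1 is the filled point on the right.

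Per kilobase of exon, the order of levels in mouse controls began with Phgdh at 38.0 ± 5.33 and Shmt2 at 30.4 ± 3.83 CPM per kilobase (SD, n = 3), whose libraries overlapped. Mthfd1l at 16.03 ± 3.82 and Mthfd1 at 15.4 ± 1.24 overlapped as well, Mthfd2 stood at 12.8 ± 0.705, and Psat1 at 8.84 ± 1.42 overlapped Psph at 6.68 ± 1.76. Shmt1 at 2.63 ± 0.213 and Tyms at 1.61 ± 0.664 came last, and per kilobase of the longest or of a principal transcript the libraries of Shmt1 and Tyms overlapped. TYMS was thus the highest of the 9 genes in sh-NC J.gamma1 cells, whereas Tyms was among the lowest 2 in control splenic T cells, each within its own table, since the tables were scaled apart. In the knockout, Mthfd1 stood at 31.1 ± 1.49 CPM per kilobase of exon, beside Shmt2 at 32.6 ± 1.51 and Phgdh at 32.4 ± 0.186 (SD, n = 2).

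Markers of dividing cells and of other blood cells moved with the groups in the mouse, where 2.68% of all tested genes were called higher and 0.15% lower. Both knockout libraries lay above every control in 18.2% of all tested genes and below every control in 17.8%. All 16 proliferation markers were higher in both knockout libraries than in every control, and 10 of them rose significantly by edgeR's quasi-likelihood test (Mki67, Top2a, Ccna2, Plk1, Tpx2, Cenpf, Kif11, Mcm2, Mcm3 and Mcm5), with a median log2 fold change of 1.88 over the list. Their sum was 608, 775 and 503 CPM in controls 1, 2 and 3 and 1689 and 1877 CPM in knockout 1 and 2, and Tyms took the same order over the 5 libraries while Mthfd1 did not. The 13 erythroid markers with a row, which encode hemoglobins and other red cell proteins, summed to 2282, 1300 and 607 CPM in the controls and 4629 and 6466 CPM in the knockout. All 13 were higher in the knockout without overlap and 7 were called, Slc4a1, Klf1, Gata1, Ermap and Epb42 among them, and none was at 0 in every library; the cells had been sorted for CD3. T cell markers summed to between 6211 and 7390 CPM in controls and to 4986 and 5217 CPM in the knockout. Their median log2 fold change was -0.40, and both knockout libraries lay below every control in 11 of the 12 and above in 0. By edgeR 0 of the 12 were called, DESeq2 called 2 lower, and 6 were lower at an unadjusted p under 0.05. The highest expressed, Tcf7 and Lck, had log2 fold changes of -0.33 and -0.43.

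Plasma cell markers summed to 345 to 1086 CPM in controls and 1070 to 1405 CPM in the knockout, so the sums overlapped. All 6 had a log2 fold change above 0, 4 were higher in the knockout without overlap, and edgeR called Prdm1 higher (log2 fold change 1.42). DESeq2 called 3 of them higher, and 4 were higher at an unadjusted p under 0.05. Over all tested genes 47.9% lay above 0, 18.2% were higher without overlap, and edgeR called 2.68% higher. Over all 15994 genes it tested, DESeq2 called 958 higher. The summed B cell, myeloid and NK cell markers overlapped between the groups. The part of these shifts in the values of Mthfd1 and Tyms was not tested, and in bulk samples fewer or more cells of a type and less or more RNA per cell cannot be told apart. In J.gamma1 cells the 16 proliferation markers summed to 6604 and 6300 CPM with sh-NC and 5640 and 5551 CPM with sh-IRF2BP2, with CDK1 (-1.02), PCNA (-1.02) and MCM3 (-0.61 on the log2 scale) called lower and 0 called higher. Over all tested genes 5.32% were called lower and 5.83% higher. The part of the proliferation markers in the lower PHGDH, PSAT1 and SHMT2 was not tested either.

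**Figure D4:**
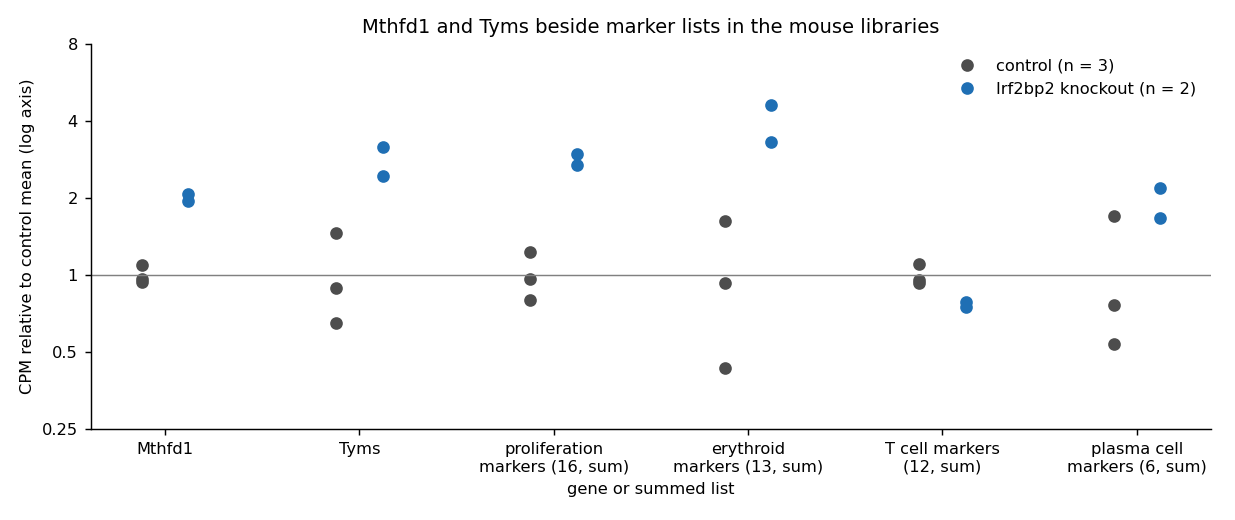
Mthfd1, Tyms and the summed CPM of marker lists (x axis) in each mouse library, relative to the mean of the 3 controls (y axis, log scale), with controls in grey (n = 3) and Irf2bp2 knockout in blue (n = 2). The blue points stand above the grey for Mthfd1, Tyms, proliferation and erythroid markers and below for T cell markers, and plasma cell markers overlap.

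The rest of the pathway was read from lists of genes that act beside the 9. In J.gamma1 cells, 10 of 61 tested genes of 5 such lists were called lower and 1 higher, with a median log2 fold change of -0.15. Over all tested genes 5.32% were called lower and 5.83% higher, and the counts of each list below are to be read beside these shares. Among 13 other folate cycle and glycine cleavage enzymes the median was -0.07 and 1, ALDH1L1, was called lower, from 16 and 13 counts to 0 and 0, at least 5.06-fold lower.

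Of 12 transporters of serine, glycine and folate, SLC38A2 (-0.82) and SLC1A4 (-0.52 on the log2 scale), both carriers of neutral amino acids, fell. SLC25A32, the mitochondrial folate carrier, rose from 41.1 and 30.9 to 90.5 and 72.8 CPM (log2 fold change 1.18, SE 0.175, adjusted p = 0.0066 by edgeR's quasi-likelihood test), opposite in direction to the mitochondrial enzymes SHMT2, MTHFD2 and MTHFD1L. Of 13 further thymidylate and deoxynucleotide genes, TK2 (-0.91), DCTPP1 (-0.69) and UNG (-0.64) fell, and the median of the list, -0.27, was close to the value of TYMS.

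The transsulfuration genes CBS and CTH, which pass the sulfur of homocysteine to serine carbon on the way to cysteine, were the 2 of 10 methionine cycle genes that fell, by 1.07 and 1.02 on the log2 scale. Of 13 purine synthesis genes, ATIC (-0.60), which takes its formyl group from folate, and PRPS2 (-0.42) fell, with a list median of -0.22.

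PHGDH, PSAT1, SHMT2 and MTHFD2 are known targets of ATF4, the transcription factor of the amino acid response, and MYC is known to act on several of the 9 genes. ATF4 itself had 430 and 418 CPM with sh-NC and 328 and 288 CPM with sh-IRF2BP2 (log2 fold change -0.46, SE 0.128, adjusted p = 0.058). Of 21 tested genes in a list of ATF4 and its targets, AARS1 (-0.66) was called lower by edgeR and none was called higher, with a median of -0.13. Over all tested genes 5.32% were called lower and 5.83% higher. DESeq2 called 4 of the list lower and 0 higher, and over all 13705 genes it tested 1094 lower and 1227 higher. At an unadjusted p under 0.05, 5 were lower and 0 higher, a share not counted over all genes. Both sh-IRF2BP2 libraries lay below both sh-NC libraries in 8 and above in 2, against 28.7% and 29.6% of all genes. MYC was called lower (log2 fold change -0.74, SE 0.182, adjusted p = 0.040), from 247 ± 47.3 to 148 ± 28.5 CPM (SD, n = 2 each), as 1 of 4 genes of the MYC family and MAX. MYCN went the other way, from 14.9 and 14.5 to 24.3 and 20.2 CPM, and was not called (log2 fold change 0.60, SE 0.167, adjusted p = 0.059 by edgeR's quasi-likelihood test). The part of ATF4 or MYC in the values of the 9 genes was not tested.

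In the mouse, edgeR called 6 of 59 genes of these 5 lists higher and 0 lower, with a median of 0.09. Over all tested genes 2.68% were called higher and 0.15% lower. Both knockout libraries lay above all controls in 15 of the 59 and below them in 9, against 18.2% and 17.8% of all genes. DESeq2 called 9 higher and 1 lower, and 10 were higher and 2 lower at an unadjusted p under 0.05. The 6 genes called by edgeR were the thymidine kinase Tk1 (log2 fold change 2.11), the ribonucleotide reductase subunits Rrm1 (1.59) and Rrm2 (2.51), the glycine transporter Slc6a9 (3.68), Slc38a5 (2.94), a carrier of glutamine, serine and glycine, and Slc25a38 (0.80), which brings glycine into mitochondria for heme synthesis. By edgeR none of 11 other folate cycle genes was called (the highest expressed, Dld and Mtfmt, had log2 fold changes of 0.13 and -0.26), nor of 9 methionine cycle genes (Mat2a 0.12, Mat2b -0.18) or of 13 purine genes (Atic -0.04, Paics 0.20). At an unadjusted p under 0.05 1 methionine gene and 1 purine gene were lower, and DESeq2 called 1 purine gene lower.

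Of 20 tested genes in the ATF4 list, Asns (2.71), Pck2 (1.15) and Slc7a5 (0.72 on the log2 scale) were called higher by edgeR in the mouse, against 2.68% of all tested genes. DESeq2 called 6 of the list higher and 0 lower, and 8 were higher and 0 lower at an unadjusted p under 0.05. Over all 15994 genes it tested, DESeq2 called 958 higher. Both knockout libraries lay above every control in 10 of the 20 and below in 1, against 18.2% and 17.8% of all genes. Atf4 itself had a log2 fold change of 0.20 (SE 0.178, adjusted p = 0.66). Asns stood at 4.45, 6.998 and 2.94 CPM in controls and 32.7 and 31.0 CPM in the knockout. The members among the known ATF4 targets, Phgdh, Psat1, Shmt2 and Mthfd2, were not called in the same libraries, though Psat1 was higher without overlap. Myc (-0.10) and Max (-0.33) were not called.

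**Figure D5:**
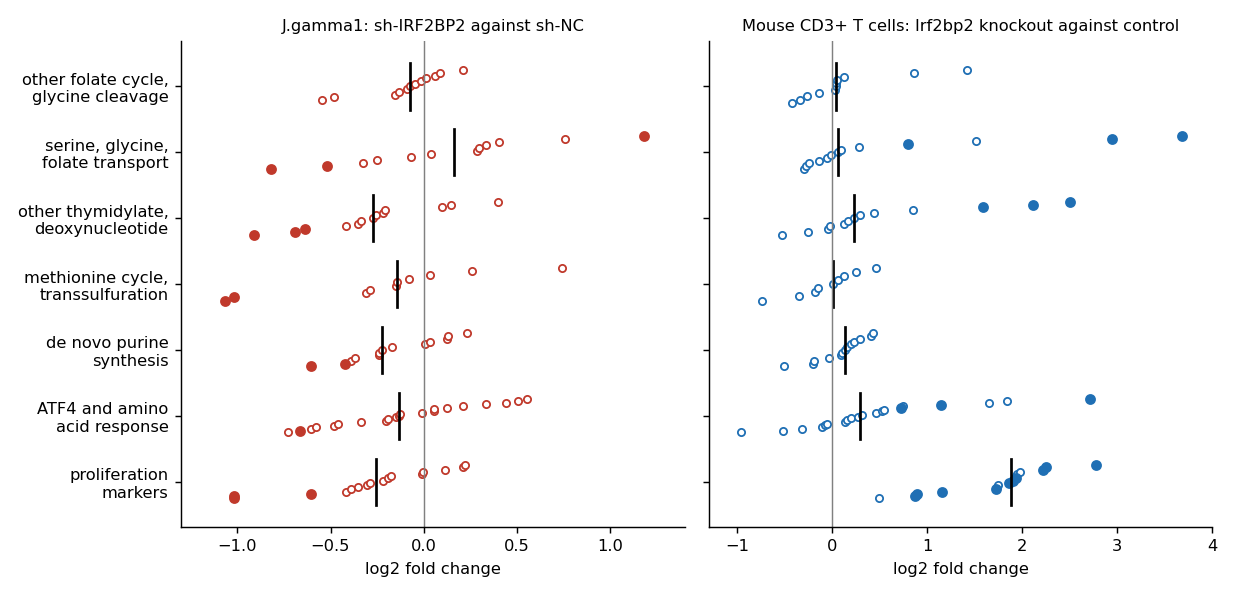
Log2 fold changes (x axis) of the tested genes of 7 gene lists (y axis) in J.gamma1 cells (left) and mouse CD3+ T cells (right); filled points have an adjusted p under 0.05 and black lines are list medians. ALDH1L1, at 0 counts in both sh-IRF2BP2 libraries, lies outside the left axis; all filled points but SLC25A32 are below 0 on the left, and all are above 0 on the right.

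The genes outside these lists whose pattern over the libraries was most like that of PHGDH, the member with the largest change in J.gamma1 cells, were CENPV, GAB2 and TCF19. Their log2 CPM, centred on the control mean, lay within a root mean square distance of 0.027, 0.028 and 0.041 of PHGDH over 4 libraries, among 9642 genes of at least 10 CPM. The nearest to Tyms in the mouse were Atpif1 (0.053), Ybx3 (0.091) and Cdc45 (0.115) over 5 libraries, among 8969 genes. With so few libraries many patterns lie close, and the distances are a description.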

How the data were processed

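RNA-seq gene counts (150-base paired-end reads) of J.gamma1 cells (n = 2 and 2) and mouse splenic CD3+ T cells (n = 3 and 2) were used as deposited. Per the labels, the authors aligned reads with HISAT2 2.2.0 to hg38 or mm10 and ran StringTie, and the deposited values are raw counts per Ensembl gene, whole numbers without normalization. How coverage became counts and whether strand was used are not given in the sources used here. A wrong set read length would scale all counts, so counts divided by 2 were an alternative.

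Rows with a GENCODE 44 or M21 identifier, holding 98.0% and 99.8% of counts, were filtered with filterByExpr, scaled by TMM and tested per table with edgeR 4.0.16 (glmQLFit, glmQLFTest) in R 4.3.3, with Benjamini-Hochberg adjustment over all genes tested and calls at an adjusted p under 0.05. The standard errors given with edgeR were derived from its test, as the size of the log2 fold change divided by the square root of the F statistic. The authors used DESeq2, which was run as an alternative (1.42.0). The biological coefficient of variation was 0.165 and 0.271, with 2 and 3 residual degrees of freedom. Replicates differed by more than sampling noise (chi-square per gene of 20.0 or more), so each library counted as 1 replicate. A gene at 0 in a group was set against a floor of 3 counts per library, which covers counting error only.

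The text names all 9 members, the called genes of each list or, where none was called, the 2 highest expressed for the mouse metabolic, MYC and T cell lists, and per table the 3 genes nearest in pattern to the member with the largest change among genes of at least 10 CPM. B cell, myeloid and NK cell lists are given by their sums. ENOSF1, ATF4, Atf4, MYCN and the ratios between members were added after their values were seen. Members and lists were chosen with earlier results of these data known. Some items that met these rules are named nowhere and not reported here. Promoter windows came from hg38 at the start of the Ensembl canonical transcript (Python 3.11.15) and, for the mouse, from RefSeq on GRCm38.p6. The fits were tested on simulated data with 200 changed genes. The alternatives were upper-quartile or RLE scaling, keeping every gene with 1 or more counts somewhere, all rows, DESeq2, a block for the replicate number, leaving out each library, and a minimum log2 fold change of 0.5 or 1. Principal-transcript length was added after the data were seen.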

Additional observations from a re-analysis of the deposited data

Results flagged for a closer look

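PSAT1 and TYMS went in opposite directions in the 2 tables. Both sh-IRF2BP2 libraries of PSAT1 lay below both sh-NC libraries in J.gamma1 cells (log2 fold change -0.85), and both knockout libraries of Psat1 lay above all controls in mouse CD3+ T cells (0.34). For TYMS the log2 fold change was -0.25 in J.gamma1 cells and 1.48 for Tyms in the mouse. Of these 4 values only that of PSAT1 in J.gamma1 cells passed the test by edgeR. The difference between the tables was not tested, since species, cell type and the means of losing IRF2BP2 all differ between them. With 2 or 3 libraries per group, no group was large enough to look for single outlying libraries.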

How the results depend on the processing

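PHGDH was called lower under every alternative run. The count of J.gamma1 members called lower, 3 in the fit reported, was 5 with upper-quartile scaling, 5 with DESeq2 and 5 with counts divided by 2. With libraries left out, the median log2 fold change of the members lay between -0.56 and -0.40. The calls of PSAT1 and SHMT2 were lost in some of those fits, as given above, and the calls over all genes changed as well. SHMT2 was not called with a filter of at least 1 count (adjusted p = 0.052). For the other 5 metabolic lists in J.gamma1 cells, 4 genes in place of 10 were lower with that filter and 4 to 12 with libraries left out, and 1 to 5 in place of 1 were higher. In the mouse, 2 members in place of 1 were higher with DESeq2, the second being Tyms (adjusted p = 0.0016), and 0 to 2 with libraries left out. Of the mouse metabolic lists, 1 gene in place of 0 was lower with DESeq2, and 0 to 8 in place of 6 were higher with libraries left out. Shmt1 turned to 0.05 without control replicate 2 (range -0.17 to 0.082 with libraries left out), and Mthfd1l to -0.038 without the same library (range -0.038 to 0.27). The cause was not tested.

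Whether same-numbered libraries were paired is not given in the sources used here. Their deviations from group means correlated with r = 0.29 in both J.gamma1 pairs and -0.29 across the numbers. With 2 libraries per group these values must be equal in size, so they do not decide whether the libraries were paired. In the mouse r was 0.21 and -0.11 for the same-numbered libraries. With the replicate block, 7 J.gamma1 members were lower, 16 genes of the metabolic lists were lower and 3 higher, and 2 mouse members were higher.

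Over all genes, calls in J.gamma1 cells (841 lower, 923 higher) went to 396 and 319 with the filter of at least 1 count, 1663 and 1884 with the block, 419 and 418 without sh-IRF2BP2 replicate 1 and 1384 and 1863 without sh-NC replicate 1. Upper-quartile scaling moved the split to 1033 lower and 795 higher. Mouse calls (23 lower, 412 higher) went to 253 and 958 with DESeq2, 53 and 443 with the block, and 1 and 6 without control replicate 1. With 2 or 3 libraries per group, the changes of TYMS and MTHFD1 in J.gamma1 cells lay within 2 standard errors of 0.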

Other observations

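MTAP, the methylthioadenosine phosphorylase of the methionine salvage pathway, had 0 counts in all 4 J.gamma1 libraries. SAMHD1, which degrades deoxynucleotides, had 2 and 0 counts with sh-NC and 9 and 6 counts with sh-IRF2BP2 and did not enter the test. Both were chosen after their values were seen.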
